A study of Gallus gallus with 6 samples.

Results

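The genes described here peaked in a single piece of chicken skin. They were chosen from the deposited FPKM (a gene's fragments relative to the length of its exons and to library size) as the genes whose highest FPKM over 6 libraries was at least 5 and at least 4 times the second highest, and symbols that start with KRT were left out. This rule found 53 of the 18315 genes, out of 10793 genes with a highest FPKM of at least 5. The highest and second highest FPKM chose the genes, so these peaks are given as a description, with no test.

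Ma-Huang chickens, a pure line of meat-type birds raised under the same feeding, were chosen by the yellowness of the cloacal skin. The s_deep group held 3 birds of high yellowness (s_deep6402, s_deep6403 and s_deep7858), and the s_light group held 3 birds of low yellowness (s_light6575, s_light6971 and s_light8275). A piece of cloacal skin was taken from each bird, the fat under the skin was scraped off, and 1 library was made per bird, so the bird and the piece cannot be told apart. The birds shared breed, age and feed, and the labels give no treatment, genotype or sex.

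Summed over all genes, the libraries held between 471488 and 488777 FPKM. The number of reads behind each FPKM was not worked out, so the counting error of a single gene is not given. Genes of keratinocytes, the main cells of the epidermis, were high in every library, with KRT5 at between 769.10 and 1368.81 FPKM and KRT14 at between 615.64 and 1057.12 FPKM. These markers were present in all 6 libraries, as in skin. The 36 measured genes on W, the female-specific chromosome of birds, summed to 255.01 and 198.19 FPKM in s_deep6402 and s_deep6403 and to between 918.34 and 1351.44 FPKM in the other 4 libraries. All s_light libraries thus lay on the high side, and s_deep6402 and s_deep6403 on the low side. The labels give no sex, so a difference of sex and one of group cannot be fully told apart here. None of the 38 peaking genes found in the RefSeq table lay on W or Z.

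Feathers, scales and claws of birds are built from corneous beta-proteins, also called beta-keratins, which are distinct from the alpha-keratins of the KRT genes. Many of their genes stand side by side on chromosome 25, within a cluster of genes for the outer layers of the epidermis called the epidermal differentiation complex. In the growing feather, Sonic hedgehog from the epithelium takes part in shaping the barb ridges, and a follicle passes through growth and rest, so neighbouring follicles can differ in what they express.

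Of the 53 genes, 32 (60.4%) peaked in s_light6575, 8 in s_light6971, 7 in s_light8275, 4 in s_deep6403 and 2 in s_deep7858, and none peaked in s_deep6402. Among all 10793 genes with a highest FPKM of at least 5, the highest library was s_light6575 for 15.5% and s_deep6402 for 22.7%. The set thus leaned toward a single s_light bird in a way that the genes as a whole did not. Of the 32 genes, however, 21 lay on chromosome 25, where near-identical copies can share reads. In bulk skin, more cells of a type and more RNA per cell cannot be told apart.

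**Figure D1:**
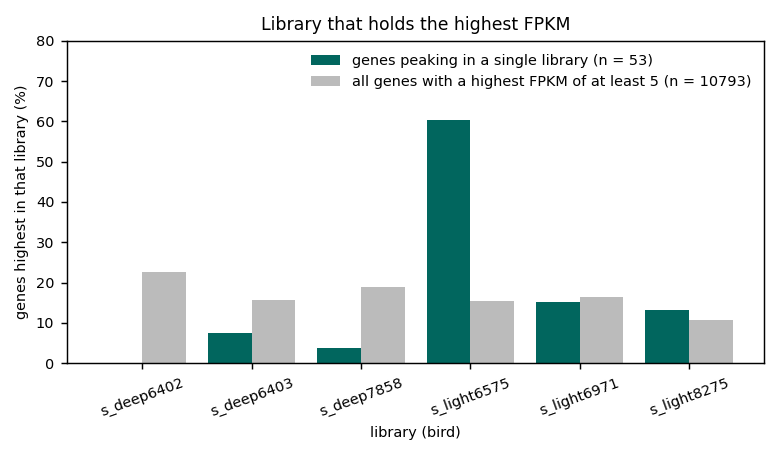
Share of genes (y axis, percent) whose highest FPKM fell in each library (x axis), for the 53 genes that peaked in a single library (green bars) and for all 10793 genes with a highest FPKM of at least 5 (grey bars). The green bar of s_light6575 stands at 60.4% against a grey bar of 15.5%, and s_deep6402 has no green bar.

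Summed over the 53 genes, the FPKM came to 3773.53 in s_light6575, which was 0.774% of that library. The sum was 460.92 FPKM in s_deep7858, 357.50 in s_light6971, 207.63 in s_light8275, 164.15 in s_deep6403 and 68.98 in s_deep6402. The peak itself ranged from 5.16 to 492.80 FPKM (median 53.3) for the genes of s_light6575. It was lower for the genes of s_light8275 (5.82 to 38.50 FPKM, median 18.8) and had a median of 7.03 FPKM for those of s_light6971.

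Which genes peaked together was seen further in the library that came second, whose identity the rule did not use. Of the 32 genes that peaked in s_light6575, 23 had s_deep7858 as the next highest library and 5 had s_light6971. Among all 1677 genes with a highest FPKM of at least 5 that were highest in s_light6575, s_deep7858 came next in 27%. Of the 7 genes that peaked in s_light8275, 6 had s_light6971 next, against 15.7% of all such genes highest in s_light8275. The genes of a set are not independent, since neighbours and near-identical copies can share reads.

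**Figure D2:**
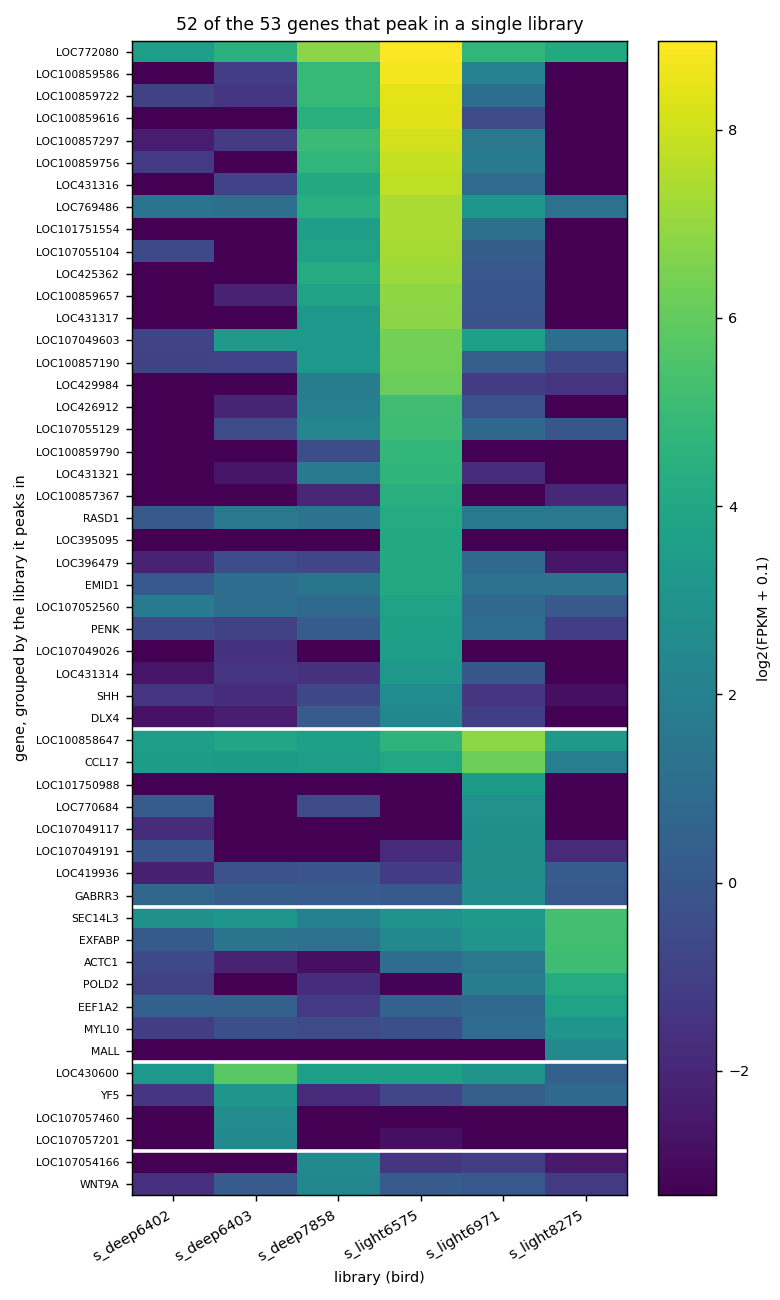
Heat map of log2(FPKM + 0.1) (colour) of 52 of the 53 genes (rows) in the 6 libraries (columns), with white lines between the genes of different peak libraries. The top block of 31 genes is brightest in s_light6575 and next brightest, for 22 of them, in s_deep7858.

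The largest group of the set lay on chromosome 25 of the RefSeq assembly GRCg7b, with 21 genes, all of which peaked in s_light6575. They were summed at 2891.43 FPKM in s_light6575, 257.55 in s_deep7858 and 34.34 in s_light6971, and at 5.74, 4.02 and 3.35 FPKM in s_deep6403, s_deep6402 and s_light8275. The s_light group therefore held both the highest and the lowest of these sums. These 21 genes carry only LOC numbers in the table, and the NCBI gene descriptions that would tell feather, claw and scale keratins apart were not used here, so no keratin class is given to any of them. One of them, LOC107055129, has the synonym EDCH4, a name given to a gene of the epidermal differentiation complex.

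Gene order showed that these genes were neighbours. From the first to the last of them the table lists 81 genes, of which 46 were measured and 21 peaked in s_light6575 by the rule. The longest stretch in which every measured gene belonged to the set ran over 14 measured genes, from LOC100859722 to LOC431317. In s_light6575 these 14 genes were read at between 20.68 and 418.28 FPKM (median 162), in s_deep7858 at between 0.15 and 32.58 FPKM (median 15.3) and in s_light6971 at no more than 4.18 FPKM. They did not exceed 0.55 FPKM in s_deep6402, 0.46 in s_deep6403 and 0.16 in s_light8275, where 13 of the 14 were listed at 0. The ratio of s_light6575 to s_deep7858 lay between 7.63 and 138 with a median of 11.9.

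The highest gene of this stretch, LOC100859586, was read at 418.28 FPKM in s_light6575, 29.76 in s_deep7858, 4.18 in s_light6971, 0.37 in s_deep6403, and at 0 in s_deep6402 and s_light8275. Next to it in gene order, LOC100859616 was read at 341.06 FPKM in s_light6575, 20.97 in s_deep7858 and 0.61 in s_light6971, and was listed at 0 in the other 3 libraries. Both had the same order of libraries at the top, as had LOC101751554 with 166.42 FPKM in s_light6575, 11.84 in s_deep7858 and 2.22 in s_light6971. At the lower end, LOC100857367 was read at 20.68 FPKM in s_light6575, 0.15 in s_deep7858 and 0.16 in s_light8275, and was listed at 0 in the other 3 libraries. LOC100859790 was read at 28.04 FPKM in s_light6575 and 0.67 in s_deep7858 and listed at 0 elsewhere, so these members of the stretch lacked the high value of s_deep7858.

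The third place also repeated. In 17 of the 21 genes of chromosome 25, s_light6971 lay above s_deep6402, s_deep6403 and s_light8275, a relation held by 22.2% of all 1677 genes highest in s_light6575. The values compared were low, with a median of 0.9 FPKM in s_light6971. In s_light8275, 17 of the 21 were listed at 0, so the third place often rests on values near the floor. Reads of near-identical copies can be split between them in ways that the FPKM do not show, and 12 of the 21 gene models overlap another model in GRCg7b. The FPKM of single copies are therefore uncertain, and how far shared reads carried the common order was not tested.

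**Figure D3:**
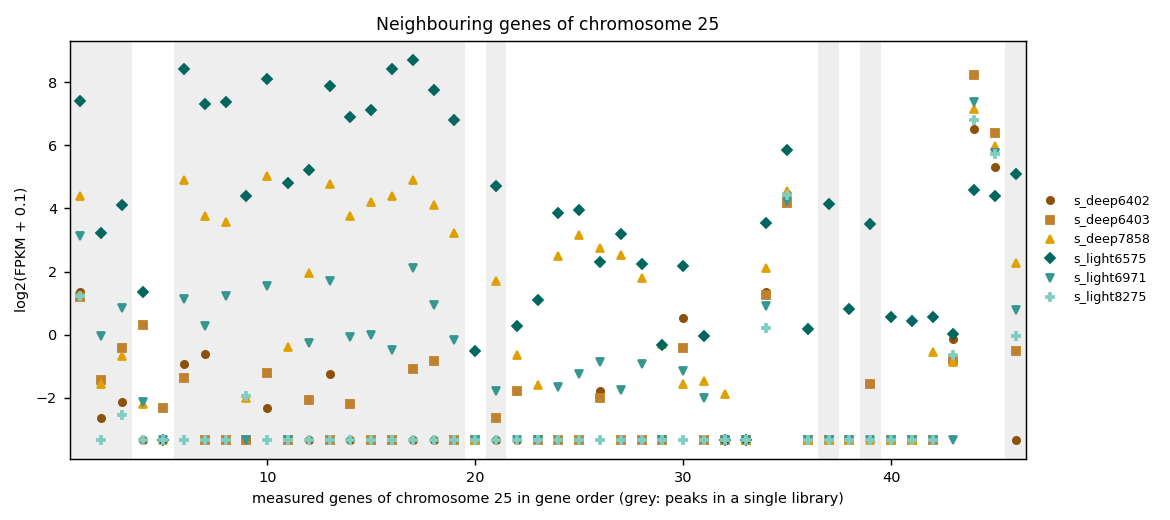
FPKM of the 46 measured genes of chromosome 25 from the first to the last gene of the set, on a log2(FPKM + 0.1) axis (y), in gene order (x, without distances), with a marker for each library and grey bands for the 21 genes that peaked in s_light6575. Within the long grey band s_light6575 lies on top and s_deep7858 below it, while the right end holds a pair of genes in which s_light6575 is the lowest.

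The neighbours outside the set fell short of the minimum FPKM or of the ratio, as the rule requires. Of the 25 measured neighbours within the stretch from first to last, 18 were also highest in s_light6575 and 3 in s_deep7858, and 17 did not reach 5 FPKM in any library. Over all genes with a highest FPKM of at least 5, the share highest in s_light6575 was 15.5%, a share that leaves out genes as low as these 17. Copies can share reads here too, so nothing is read from this count. F-KER, a feather keratin gene by its name, was read at 9.02 FPKM in s_light6575 and 5.61 in s_deep7858, with 0.20 FPKM in s_light6971 and 0 in the other libraries. LOC431325, which carries the synonym F-ker, was higher in s_deep7858 (6.63 FPKM) than in s_light6575 (4.87 FPKM). Genes bearing the feather keratin name thus shared the same pair of libraries, but without the wide gap between them.

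The entry with the synonym sKer (scale keratin), LOC396480, was read at 2.44 FPKM in s_light6575 and 1.14 in s_deep6403. It stood beside LOC396479, a gene of the set at 17.04 FPKM in s_light6575, 1.70 in s_light6971, 0.65 in s_deep6403, 0.52 in s_deep7858, 0.13 in s_deep6402 and 0.07 in s_light8275. The entry with the synonym C-ker (claw keratin), LOC430661, was read at 1.64 FPKM in s_light6575 and listed at 0 in the other 5 libraries. Its neighbour LOC395095, whose model overlaps it, was read at 17.60 FPKM in s_light6575 and also listed at 0 in the others. LOC107049026, the next measured gene, was read at 11.26 FPKM in s_light6575 and 0.24 in s_deep6403 and listed at 0 elsewhere. Around C-ker, unlike in the long stretch, s_deep7858 was listed at 0.

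Not every gene of the region was high in s_light6575. LOC101747853 was read at 23.80 FPKM there and at between 90.59 and 296.65 FPKM in the other libraries. LOC107055118 was read at 20.67 FPKM in s_light6575 and at between 39.17 and 84.18 FPKM in the others. Both lie only a few genes before LOC107055129 (EDCH4), which was read at 34.03 FPKM in s_light6575, 4.72 in s_deep7858, 1.62 in s_light6971, 0.87 in s_light8275 and 0.60 in s_deep6403 and at 0 in s_deep6402.

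The gene of the set with the highest FPKM was LOC772080 on chromosome 27, which stands among the type I alpha-keratin genes, next to KRT9. It was read at 492.80 FPKM in s_light6575, 113.96 in s_deep7858, 26.46 in s_light6971, 22.58 in s_deep6403, 17.49 in s_light8275 and 11.62 in s_deep6402. LOC420039, the next measured gene in order, fell just short of the rule with 164.04 FPKM in s_light6575 and 42.02 in s_deep7858. KRT9 on the other side was highest in s_light8275 at 1768.11 FPKM, KRT10 there too at 1958.55 FPKM, and KRT14 was read at between 615.64 and 1057.12 FPKM, so the peak did not extend to the whole row of genes.

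The KRT genes left out by the rule gave the same picture. KRT75L2 and KRT75L4, alpha-keratin genes named after KRT75 (a keratin of hair and feather follicles), met both thresholds in s_light6575. KRT75L2 was read at 285.22 FPKM in s_light6575, 45.98 in s_deep7858, 7.73 in s_light6971, 5.28 in s_deep6403, 1.41 in s_deep6402 and 0.90 in s_light8275. KRT75L4 had the same first 4 libraries in the same order, with 69.90 FPKM in s_light6575 and 10.69 in s_deep7858, and was listed at 0 in s_deep6402. KRT75 itself was read at 0.80 FPKM in s_light6575 and was highest in s_light8275 at 3.06 FPKM.

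Of the 32 genes of s_light6575, 4 had no entry in the RefSeq table. LOC107049603 was read at 82.94 FPKM in s_light6575 with s_light6971 next at 12.45 FPKM, LOC100857190 at 81.10 with s_deep7858 next at 9.25, LOC429984 at 69.85 with s_deep7858 next at 3.59, and LOC107052560 at 13.23 with s_deep6402 next at 3.20. Nothing is said here of what these genes encode.

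The genes of s_light6575 with a gene symbol included the ligand of the hedgehog pathway, in which a secreted protein binds its receptor and so releases Smoothened to activate GLI transcription factors. SHH, the ligand Sonic hedgehog, was read at 6.04 FPKM in s_light6575 and at 0.27, 0.20, 0.53, 0.27 and 0.04 FPKM in s_deep6402, s_deep6403, s_deep7858, s_light6971 and s_light8275. It was highest in the same piece as the genes of chromosome 25, with s_deep7858 next.

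Other genes of the pathway, looked up after their values had been seen, did not peak as sharply. GLI1, a transcription factor whose own gene is a target of the pathway in vertebrates, was read at 3.65 FPKM in s_light6575, 4.68 times the second highest, but was below the minimum of 5 FPKM. HHIP, a protein that binds the hedgehog ligand, was read at 1.20 FPKM in s_light6575 and at between 0.20 and 0.51 FPKM elsewhere. PTCH1, a receptor of the ligand, was read at 2.49 FPKM in s_light6575 against 2.27 in s_deep6403, and SMO, which encodes Smoothened, at 39.62 FPKM against 36.62 in s_deep6402. Of the 6 hedgehog genes looked up besides SHH, 5 were highest in s_light6575 and GLI3 in s_light6971. PTCH1 and SMO were so by only 1.1 and 1.08 times the second library. Among all genes with a highest FPKM of at least 5, 15.5% were highest in s_light6575. The genes were picked with their values known, so nothing is read from this count.

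DLX4, a homeobox gene of the distal-less family, was read at 5.16 FPKM in s_light6575, 1.04 in s_deep7858, 0.39 in s_light6971, 0.10 in s_deep6403 and 0.05 in s_deep6402 and was listed at 0 in s_light8275. PENK, which encodes the precursor of the enkephalin opioid peptides, was read at 12.25 FPKM in s_light6575, with 1.90 in s_light6971 and 1.08 in s_deep7858 and 0.55, 0.44 and 0.39 in s_deep6402, s_deep6403 and s_light8275. That the peak stood well above the rest in both follows from the rule. The next library was s_deep7858 for DLX4, as for most genes of chromosome 25, and s_light6971 for PENK.

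EMID1, an extracellular protein with an EMI domain, was read at 16.94 FPKM in s_light6575 and at between 0.93 and 2.67 FPKM in the other 5. RASD1, a small GTPase of the Ras family that was found as induced by dexamethasone in mouse cells, was read at 18.41 FPKM in s_light6575 and at 0.97, 2.77, 2.44, 3.02 and 2.85 FPKM in s_deep6402, s_deep6403, s_deep7858, s_light6971 and s_light8275. RASD1 was the only gene of s_light6575 whose 3 s_light values all lay above the 3 s_deep values, and the s_light libraries other than s_light6575 exceeded s_deep6403 by little.

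**Figure D4:**
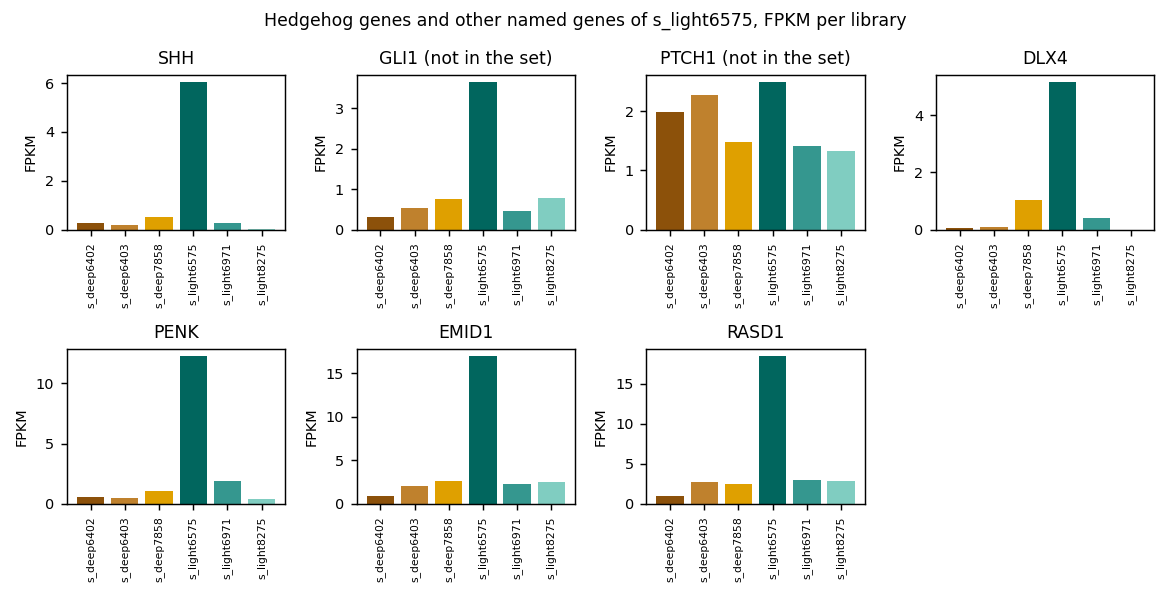
FPKM (y axis) in each of the 6 libraries (x axis, 1 bar per library) of SHH, GLI1, PTCH1, DLX4, PENK, EMID1 and RASD1, with GLI1 and PTCH1 shown for comparison as genes outside the set. The bar of s_light6575 is the tallest in every panel, at 6.04 FPKM for SHH, whereas the bars of PTCH1 lie between 1.32 and 2.49 FPKM.

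A list of 11 genes of the feather follicle was examined in the same libraries, and 10 were found. SHH, a gene of the set, was highest in s_light6575 by the rule. Of the other 9, 4 were also highest there, namely MSX2, WNT10A, LEF1 and DLX3. Among all genes with a highest FPKM of at least 5, the share highest there was 15.5%. MSX2, a homeobox gene, was read at 20.13 FPKM there and at between 3.81 and 8.86 FPKM elsewhere, whereas WNT10A, LEF1 and DLX3 were less than 1.5 times the second highest library. Summed over the list, FPKM came to 317.05 in s_light6575, within the range of 206.92 to 352.63 FPKM of the other libraries. DSG4 made up most of each sum, at 226.50 FPKM in s_light6575 and between 164.70 and 297.41 FPKM elsewhere. The sum therefore says little of the other genes of the list. Of 10 melanocyte genes, 6 were highest in s_light6575, among them TYR, the tyrosinase of melanin synthesis, at 1.48 FPKM against at most 0.22 elsewhere. PMEL was read there at 0.69 FPKM against at most 0.10, MLPH at 1.25 against at most 0.21 and GPR143 at 1.63 against at most 0.44. None of the 6 reached 5 FPKM, so the share of 15.5%, which covers genes past that minimum, is not set beside them. The whole list summed to 27.70 FPKM in s_light6575 and to between 27.18 and 30.64 FPKM elsewhere, most of it from MITF and DCT, which were both lowest in s_light6575. MITF and DCT were left out once seen to make up most of the sum. The other 8 then summed to 5.34 FPKM in s_light6575 and to between 0.46 and 1.08 FPKM elsewhere. Of these 8, MLANA was highest in s_light6971 at 0.16 FPKM. OCA2 was highest in s_deep6403 at 0.06 FPKM and was listed at 0.00 in s_light6575. TYRP1 was listed at 0 in every library but s_light6575, where it was at 0.03 FPKM. The part of these cells in the peaks was not tested.

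The 7 genes that peaked in s_light8275 all had symbols and lay apart, 1 on each of 6 chromosomes and 1 with no entry in the table. ACTC1, the cardiac alpha-actin, was read at 34.54 FPKM in s_light8275, 2.85 in s_light6971 and 2.02 in s_light6575, and in s_deep at 0.56 (s_deep6402), 0.13 (s_deep6403) and 0.04 FPKM (s_deep7858). MYL10, a myosin regulatory light chain, was read at 8.57 FPKM in s_light8275, 1.84 in s_light6971, 0.70 in s_light6575 and 0.38, 0.71 and 0.62 in s_deep6402, s_deep6403 and s_deep7858. EEF1A2, the form of elongation factor 1-alpha used by muscle and nerve cells in mammals, was read at 13.65 FPKM in s_light8275, 1.70 in s_light6971, 1.35 in s_light6575 and no more than 1.27 in s_deep. For ACTC1 and EEF1A2 the groups did not overlap, and for MYL10 they overlapped only in that s_deep6403 lay just above s_light6575.

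Smooth muscle genes moved with this library. Of the list of 8 smooth muscle genes, 7 were highest in s_light8275 and ACTA2 in s_deep6403, and the list summed to 6941.43 FPKM in s_light8275 against 4147.94 and 3517.03 in s_light6575 and s_light6971 and 1385.36 to 2797.26 FPKM in s_deep. All 5 Schwann cell genes were highest in s_light8275 too, with sums of 58.18 FPKM there, 38.74 and 26.82 in the other s_light libraries and 10.02 to 13.70 in s_deep. The skeletal muscle list, 9 of 12 genes found, summed to 2137.84 FPKM in s_light8275 and to between 75.64 and 831.22 FPKM elsewhere, nearly all of it from the skeletal alpha-actin ACTA1 (2134.51 FPKM in s_light8275). The other 8 genes summed to 3.33 FPKM in s_light8275 and to between 3.08 and 7.04 FPKM elsewhere, and the fast skeletal myosins MYH1A and MYH1B did not exceed 0.06 FPKM in any library. Of the other cell type lists, that of T cells summed to 68.89 FPKM in s_light8275, below the 97.27 to 131.80 FPKM of the other 5 libraries. The remaining sums in s_light8275 and over the other 5 libraries were 43.70 against 20.72 to 54.94 for erythrocytes, 38.71 against 43.37 to 157.88 for B and plasma cells, 8.02 against 5.57 to 12.08 for heterophils and 2293.78 against 1509.52 to 2285.33 for adipocytes. They were 7.72 against 8.89 to 15.93 for mucosal and glandular epithelium, 22.21 against 11.08 to 22.69 for the oviduct and 1.01 against 0.55 to 1.88 for the cornified layer. The part of muscle or nerve tissue in the peaks of s_light8275 was not tested.

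EXFABP, which encodes an extracellular fatty acid-binding protein of the lipocalin family, was read at 37.72 FPKM in s_light8275, 8.42 in s_light6971, 5.55 in s_light6575 and between 1.02 and 2.53 FPKM in the s_deep libraries, without overlap between the groups. SEC14L3, a lipid-binding protein of the SEC14 family, was read at 38.50 FPKM in s_light8275, 9.52 in s_light6971, 8.54 in s_deep6403, 7.63 in s_light6575, 7.03 in s_deep6402 and 4.12 in s_deep7858, so the groups overlapped. MALL, a membrane protein of the MAL family, had 5.82 FPKM in s_light8275, and all other libraries listed it at 0.

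POLD2, a subunit of DNA polymerase delta, named for Gene ID 100859398 by the study's supplementary list, was read at 18.78 FPKM in s_light8275 and 3.43 in s_light6971, and at 0.41, 0, 0.20 and 0.01 FPKM in s_deep6402, s_deep6403, s_deep7858 and s_light6575. The RefSeq table gives the same symbol to another measured entry, Gene ID 107057377, which was read at 1.34 FPKM in s_light8275, 13.38 in s_light6971 and between 16.69 and 22.00 FPKM in the other 4. The entries mirrored each other. Their sum was 20.12 FPKM in s_light8275, inside the range of 16.81 to 22.01 FPKM of the other 5 libraries. FPKM of entries of unequal length do not add up exactly, and the lengths used were not at hand.

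**Figure D5:**
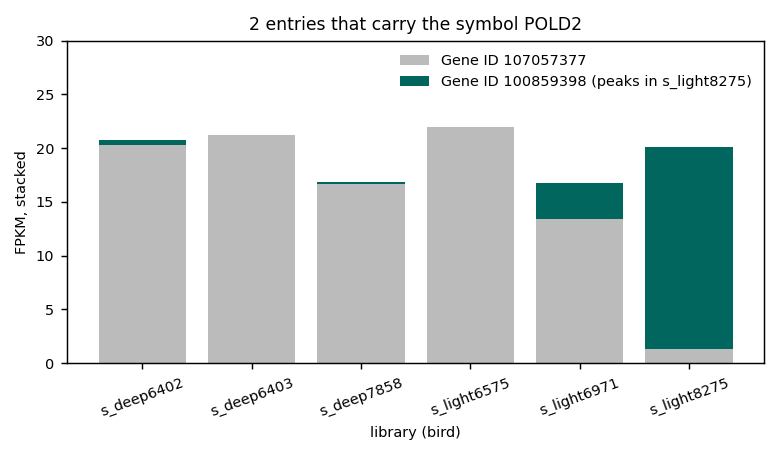
Stacked FPKM (y axis) of the entries with the symbol POLD2, Gene ID 107057377 (grey) and Gene ID 100859398 (green), in each library (x axis). The green part reaches 18.78 FPKM in s_light8275 and 3.43 FPKM in s_light6971, and the height of the stack stays between 16.81 and 22.01 FPKM.

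Of the 8 genes that peaked in s_light6971, 5 had no entry in the RefSeq table. CCL17, a chemokine that draws T cells bearing the receptor CCR4 in mammals, was read at 74.82 FPKM in s_light6971, 15.94 in s_light6575, 11.56 in s_deep7858, 10.63 in s_deep6402, 10.18 in s_deep6403 and 3.89 in s_light8275. The s_light group thus held both its highest and its lowest library. In the T cell list, only CD4 was highest in s_light6971, at 25.72 FPKM against 21.53 in s_deep7858. The other genes of the list were highest in other libraries, and GNLY was listed at 0 in s_light6971. The 6 genes summed to 113.91 FPKM there against 68.89 (s_light8275) to 131.80 FPKM (s_deep6403) elsewhere.

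LOC100858647, on chromosome 6, was read at 115.14 FPKM in s_light6971 and at between 9.72 and 24.83 FPKM in the other 5. GABRR3, a rho subunit of GABA receptors, was read at 6.41 FPKM in s_light6971 and at between 0.93 and 1.56 FPKM elsewhere. LOC101750988 was read at 10.29 FPKM in s_light6971 and listed at 0 in the others. LOC107049117, LOC107049191, LOC770684 and LOC419936 peaked at between 6.62 and 7.25 FPKM, and s_deep6402 came next in the first 3 of these.

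In s_deep, 6 genes peaked in a single library. The 4 genes of s_deep6403 all lacked an entry in the RefSeq table. YF5, a class I gene of the chicken MHC-Y region, was read at 8.78 FPKM in s_deep6403, 1.78 in s_light8275, 1.22 in s_light6971, 0.50 in s_light6575, 0.28 in s_deep6402 and 0.18 in s_deep7858. Genes of this region differ in sequence and number between birds, which can affect how reads align to them. Whether this had a part in the peak of YF5 was not tested. LOC430600 was read at 56.26 FPKM in s_deep6403, between 8.11 and 12.48 in 4 libraries and 1.24 in s_light8275. LOC107057460 was read at 5.97 FPKM in s_deep6403 and listed at 0 in the others, and LOC107057201 at 5.80 FPKM with 0.04 in s_light6575 as its only other value above 0.

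WNT9A, a Wnt ligand, was read at 5.25 FPKM in s_deep7858 and at 0.23, 1.06, 1.03, 0.90 and 0.33 FPKM in s_deep6402, s_deep6403, s_light6575, s_light6971 and s_light8275. LOC107054166 was read at 5.60 FPKM in s_deep7858 and at no more than 0.37 FPKM elsewhere. By the rule, the piece of s_deep7858, next highest for most genes of chromosome 25, peaked in only these 2 genes. The rule allows a gene no peak outside its highest library, so s_deep7858 could not count where s_light6575 was higher. In the long stretch of 14 genes of chromosome 25, s_deep7858 had a median of 15.3 FPKM (0.15 to 32.58), against 1.01 in s_light6971. Without s_light6575, 34 genes of the set still met the rule, and some that had peaked in s_light6575 then peaked in s_deep7858. Examples were LOC772080, at 113.96 FPKM in s_deep7858 against 26.46 in s_light6971, and LOC100859586, at 29.76 against 4.18 FPKM. LOC769486, at 20.80 against 8.67 FPKM in the same libraries, no longer met the rule. The full number that then peaked in s_deep7858 was not counted.

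The rule placed some genes close to its limits. SEC14L3 and GABRR3, at 4.04 and 4.11 times the second library, were the last genes inside, and LOC420039 and SOSTDC1, at 3.9 and 3.89 times, were the first outside. On the minimum, DLX4 and WNT9A were the lowest inside, at 5.16 and 5.25 FPKM, and CRABP1 at 4.94 FPKM in s_light6575 and LOC107056369 at 4.92 FPKM in s_light8275 were the nearest outside. In 30 of the 53 genes at least 1 library was listed at 0, and 4 genes were listed at 0 in all libraries but the peak.

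The study compared s_light with s_deep, and 47 of the 53 genes peaked in an s_light bird, 32 of them in s_light6575 alone. Among all genes with a highest FPKM of at least 5, 15.5%, 16.4% and 10.6% were highest in s_light6575, s_light6971 and s_light8275. With its own test and thresholds, the study listed MALL, ACTC1 and POLD2 of this set among its most changed genes, higher in s_light. It also called TYR, PMEL and GPR143, which lie outside the set. The test used here was a different one. All 53 had a mean of at least 0.1 FPKM and were tested, though for many of them this mean came from the peak alone. In limma's moderated test on log2(FPKM + 0.1) over 15900 genes, none of the 53 passed the threshold, set at a Benjamini-Hochberg adjusted p not above 0.05 and a log2 fold change of 1 or more in either direction, which 0.0440% of all genes passed. At an unadjusted p under 0.05 in limma there were 2 of the 53 genes, against 6.45% of all genes tested. The rule took genes in which a single library stood apart, which widens the spread within its group, so these counts were largely set by the choice of genes and nothing is read from them.

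The median log2 fold change of the set, s_light minus s_deep, was 1.62, against -0.02 over all genes tested, and follows from where the peaks lay. The groups did not overlap, with s_light higher, for 4 of the 53 genes (RASD1, EXFABP, ACTC1 and EEF1A2), where 5.36% of all genes did so, and for none with s_deep higher, where 5.48% did. In all the others the groups overlapped. None of these comparisons took the sex of the birds into account.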

How the data were processed

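RNA-seq libraries of cloacal skin from 6 chickens were used, 1 per bird. According to the study's methods, reads were filtered and aligned to Gallus_gallus-5.0 with TopHat, whereas the submitters' processing notes name HISAT2 2.0.4, Bowtie2 2.2.5 and RSEM 1.1.12. The authors deposited FPKM per NCBI Gene ID, rounded to 2 decimals, scaled to exon length and mapped reads. No counts were used. Some low FPKM moved in steps, as for AvBD4 at 0.00, 0.09 and 0.18 FPKM, but reads were not recovered from them. Shared reads of gene copies can move FPKM between entries.

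The rule (highest FPKM at least 5 and at least 4 times the second) was applied to these FPKM. Names and gene order came from RefSeq GRCg7b, which held 83.5% of the IDs and 38 of the 53 genes. The other 15 were named from the study's supplementary list. That assembly is not the authors', so no coordinates are given. NCBI descriptions and sequences were not used here. One gene of the set is counted but not reported here. Genes averaging 0.1 FPKM or more were tested with limma 3.58.1 in R 4.3.3 (intensity trend, pseudocount 0.1, Benjamini-Hochberg). Other steps used Python 3.11.15, numpy 2.4.6 and pandas 2.3.3. The rule and the test were tried on simulated data. Groups came from the labels, each library being a separate bird. Cell type lists were looked up by symbol.

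The naming rule took up to 10 members with a symbol in each library (highest FPKM first), the 10 with the largest ratios, the 2 nearest each limit on either side and the KRT genes past both limits. Other members, the chromosome neighbours and the hedgehog genes were chosen after seeing their values. The members and lists were chosen with earlier results of these data known. Alternatives were other limits, pseudocounts, filters and scalings, no trend, and each library left out.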

Additional observations from a re-analysis of the deposited data

How the results depend on the processing

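The number of genes in the set was 53 as reported, stayed within 1.5 times under 13 of 15 alternatives, and lay between 45 and 62 with each library left out. It was 137 with a minimum of 1 FPKM and 32 with a ratio of 8. The genes that peaked in s_light6575 numbered 32 and lay between 32 and 41 with each other library left out, 41 being without s_deep7858, and they numbered 63 with a minimum of 1 FPKM. Median-of-ratios scaling gave 54 genes, with all 53 among them, and quantile normalization gave 53, sharing 52. Without s_light6575, 45 genes met the rule in the other 5 libraries, and 34 of them were among the 53. For s_light against s_deep, limma called 7 of all genes, 11 with a pseudocount of 1 and 12 with median-of-ratios scaling. It called 69 without s_deep7858, 1 without s_light6575 and 0 when any of the other 4 libraries was left out singly. Without s_deep7858, the s_deep libraries had low sums of W genes and the s_light libraries high ones. No paired analysis was possible because no bird number occurs in both groups. The planned count by the word keratin in the NCBI description was not run, as no descriptions were used. FPKM carry no depth per gene, which limits most the genes peaking near 5 FPKM.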

Other observations

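Between 3 and 4 times the second library, and so just outside the set, lay 18 further genes with a highest FPKM of at least 5, of which 11 were highest in s_light6575. Among them were all 3 NR4A genes, nuclear receptors known as immediate-early genes. NR4A3 was read at 44.18 FPKM in s_light6575, 11.87 in s_light6971 and between 1.03 and 5.04 FPKM in the other 4. NR4A1 was read at 27.90 FPKM in s_light6575 and at between 1.56 and 8.73 FPKM elsewhere, and NR4A2 at 26.76 FPKM and at between 2.56 and 6.97 FPKM elsewhere. SOSTDC1, a secreted antagonist of BMP and Wnt signals, was read at 20.25 FPKM in s_light6575 and at between 2.38 and 5.21 FPKM elsewhere. These genes were looked up after the values had been seen.

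The opposite pattern was also looked for. With the limits turned around (the second lowest FPKM at least 5 and at least 4 times the lowest), 10 genes dipped in a single library. A dip needs 5 FPKM in all libraries but the lowest, whereas a peak needs it only in the highest. The number of dips is therefore not compared with that of peaks. RPL35A, a protein of the large ribosomal subunit, was read at 4.57 FPKM in s_deep7858 and at between 136.23 and 294.37 FPKM in the other 5. TPPP3, a tubulin-binding protein, was read at 5.40 FPKM in s_deep6402 and at between 35.07 and 75.17 FPKM in the others. LOC430600 met both rules, with its peak in s_deep6403 and its dip in s_light8275, and the POLD2 entry Gene ID 107057377 dipped in s_light8275, where the other POLD2 entry peaked.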
